A study of Mus musculus with 8 samples.

Results

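A set of 30 genes known as markers of neurons and nerve terminals was examined in bladder RNA. All 30 were found by symbol among the 38926 symbols of the count tables. The libraries came from bladder tissue of mice with a partial outlet obstruction made by a surgery that spares the nerves (labelled NeMO, 4 libraries) and of sham-operated mice (labelled Sham, 4 libraries). PolyA RNA was made into directional libraries and sequenced as single-end reads. The sources used here do not give strain, sex, age, time after surgery or whether each library came from its own animal. The p-values therefore reflect only how these libraries vary, which may be technical. The submitted file names carry a batch mark. Batch 1 holds NeMO replicates 1 and 3 and Sham replicates 1, 2 and 3, and batch 2 holds NeMO replicates 2 and 4 and Sham replicate 4. Every value of batch 2 alone therefore rests on 1 Sham library. What the batch mark stands for is not given.

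The bladder is supplied by parasympathetic, sympathetic and sensory axons. The cell bodies of the autonomic neurons lie mostly in pelvic ganglia beside the bladder neck, with some in small ganglia in the wall, and those of the sensory neurons lie in dorsal root ganglia. Most of a neuron's mRNA stays in its cell body and a smaller part travels along the axon. The genes in the set encode the neuronal cytoskeleton (the neurofilament chains, peripherin and neuronal tubulin), RNA-binding and transcription factors of neurons, the proteins that dock and fuse synaptic vesicles, the matrix proteins of secretory granules, and growth-associated proteins of axons. In whole tissue, fewer cells of a type and less RNA per cell cannot be told apart.

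Library totals ran from 27212499 to 36375313 counts, so 1 CPM (a library's count scaled to a common library size) stood for 26.3 to 36.1 reads. The tissue label was matched by its markers, with means of 1529 CPM for the uroplakin gene Upk1a and 12900 CPM for the smooth muscle myosin gene Myh11. The 30 neuronal genes together held 251 to 422 CPM in NeMO and 422 to 531 CPM in Sham. Most of this was a single gene, Uchl1, which made up 68.5% to 83.2% of the total in each library. Without Uchl1 the other 29 genes summed to 118, 70.9, 72.1 and 96.4 CPM in NeMO replicates 1 to 4 and to 125, 74.0, 120.4 and 155 CPM in Sham replicates 1 to 4. In this sum Sham replicate 2 lay with NeMO replicates 2 and 3, and the groups overlapped.

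Most of the neuronal genes were lower in NeMO by their fitted values, and none of them passed the test. Of the 30 genes, 28 had enough reads to be tested, and Ina and Phox2a did not. Log2 fold changes (NeMO minus Sham, with batch as a term) were below 0 for 25 of the 28 and above 0 for Stx1a, Syn1 and Nefh, with a median of −0.52. Over all 16370 genes tested the median was −0.01, with 51.7% below 0 and 48.3% above. The 28 genes did not vary independently of each other. The median of their log2 deviations from the gene's mean ran from −0.69 in Sham replicate 2 to 0.70 in Sham replicate 4. Within groups this median varied from library to library with an SD of 0.51, near the size of the fitted median. That SD is for single libraries and is not a standard error of the fitted group difference. In edgeR's quasi-likelihood test with Benjamini-Hochberg adjustment over all genes, 0 of the 28 passed 0.05, where 0.0733% of all genes did (0.0428% higher and 0.0305% lower), and the smallest adjusted p among the 28 was 0.161. At an unadjusted p under 0.05 there were 4 lower (Uchl1, Syp, Rtn1 and Elavl4) and 1 higher (Stx1a), against backgrounds of 9.14% and 9.38% of all genes. DESeq2's Wald test on the same libraries also called 0, with 5 lower and 1 higher at an unadjusted p under 0.05, where 8.68% of the genes tested were lower and 10% higher. At an adjusted p under 0.05 it called 2.24% of all genes lower and 3.19% higher. It gave no adjusted p for Elavl3 and Elavl4. The 4 NeMO values lay below all 4 Sham values in 1 of the 28 (Map2) and above them in 0, where 3.81% and 4.39% of all genes did so. On the log2 scale NeMO replicates 1 and 4 lay above the gene's mean over the 8 libraries for 19 and 17 of the 28. NeMO replicates 2 and 3 did so for only 5 and 8. Leaving out NeMO replicate 1 gave 2 calls, Stmn2 at −0.98 (edgeR adjusted p = 0.0246) and Syn2 at −0.90 (edgeR adjusted p = 0.0492). In that fit 1.98% of all genes were called lower. With the replicate number as a block edgeR called 0, and 10 were lower at an unadjusted p under 0.05, where 6.40% of all genes were.

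**Figure D1:**
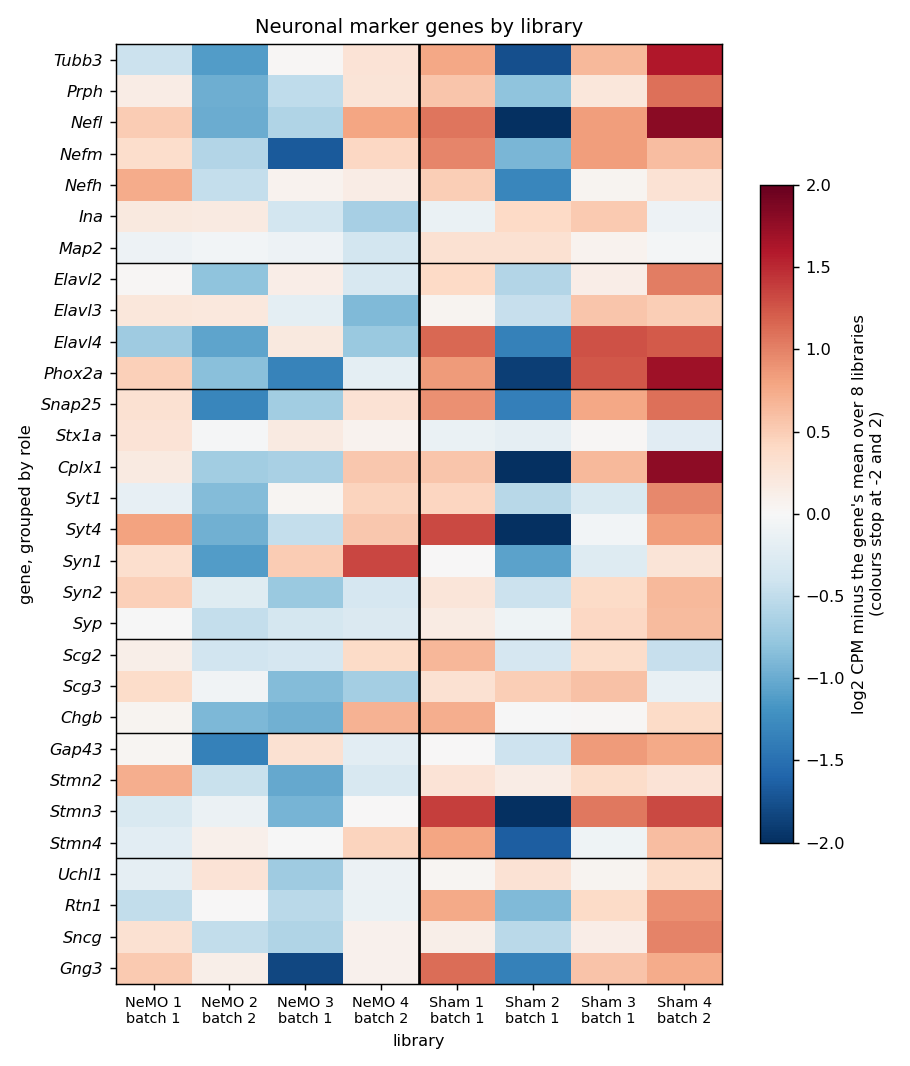
Level of each of the 30 neuronal genes in each library, as log2 CPM (prior count 2) minus the gene's mean over the 8 libraries; rows are grouped by role and columns by group, with the batch under each library. Sham replicate 2 is blue in most rows, unlike the other Sham libraries, and Stx1a, Map2 and Uchl1 vary little.

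Within each batch the direction was the same for most of the genes, and the size differed. In batch 1 alone 24 of 29 genes with enough reads were lower in NeMO and 5 higher (median −0.34), where 47.5% of all genes were higher. In batch 2 alone 26 of 29 were lower and 3 higher (median −0.95), where 50.7% of all genes were higher. Among the 28 genes of the joint fit, 24 had the same sign in both batches, where 65.4% of all genes did (31.8% higher in both and 33.6% lower in both). Elavl2, Syt1, Nefh and Scg2 were the 4 that changed sign. None passed the adjusted test in either batch (at an unadjusted p under 0.05, 1 lower in batch 1 and 11 lower in batch 2, with backgrounds of 4.56% and 5.04%), where 0% and 0.0413% of all genes did. In batch 2 the spread within a group comes from the 2 NeMO libraries only, and the lone Sham library is assumed to vary like them. That library, Sham replicate 4, was the highest Sham library for 14 of the 30 genes. Its share over all genes was not counted. The difference between the batches was itself tested as an interaction, and edgeR called 0 of the 28 genes, as it called 0% of all genes. Elavl2 was the single gene with an unadjusted interaction p under 0.05 (log2 difference −1.64, edgeR adjusted p = 0.930), where 4.63% of all genes had one.

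**Figure D2:**
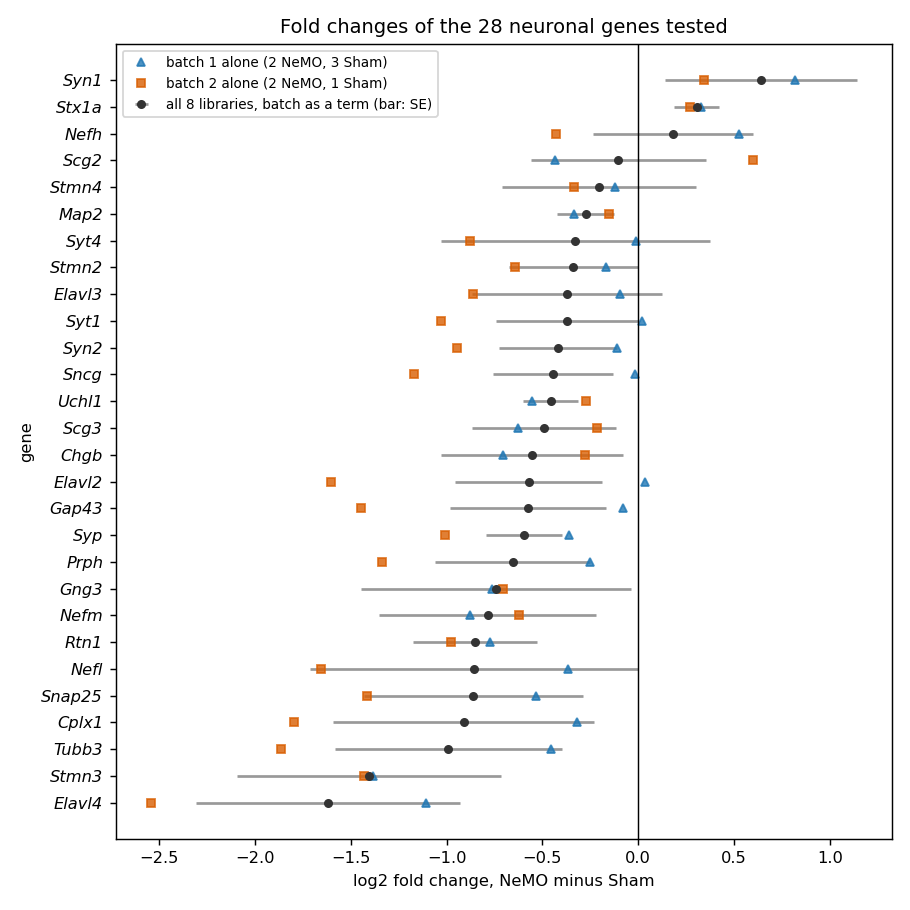
Log2 fold change of each tested neuronal gene, NeMO minus Sham; black points with bars are the fit on all 8 libraries with its SE, blue triangles are batch 1 alone and orange squares batch 2 alone. Black points lie below 0 for 25 of 28 genes, and most orange squares lie left of the blue triangles.

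Uchl1, a ubiquitin hydrolase abundant in neurons, was by far the most abundant gene of the set. Per kilobase of its longest transcript it reached a mean level of 254 CPM, and the next genes were Sncg at 13.2, Stmn2 at 4.91 and Stx1a at 4.54 CPM per kilobase. Its level was 256, 351, 179 and 269 CPM in NeMO replicates 1 to 4 and 300.4, 355, 302 and 377 CPM in Sham replicates 1 to 4. NeMO replicate 3 was lowest and Sham replicate 4 highest, and NeMO replicate 2 lay among the Sham libraries. The means were 264 ± 70.5 and 334 ± 38.5 CPM (SD, n = 4 each). The log2 fold change was −0.46 (with SE 0.14 and edgeR adjusted p = 0.161), with −0.55 in batch 1 and −0.27 in batch 2. DESeq2 gave −0.45 (DESeq2 adjusted p = 0.0512), just short of its threshold. With transcript length and GC content corrected for, the log2 fold change was −0.28 (with SE 0.155 and edgeR adjusted p = 0.477). Uchl1 followed the other neuronal genes in some libraries and not in others. Both were highest in Sham replicate 4 (377 CPM, and 155 CPM for the other 29 together). In NeMO replicate 3 Uchl1 was lowest, and the other 29 were near their lowest (72.1 CPM). But Uchl1 was high in Sham replicate 2 and NeMO replicate 2, where the other 29 together were low. Those libraries were high in urothelial transcripts: the summed level of 13 urothelial markers, none of them at 0, was 7053, 10480, 7367 and 8938 CPM in NeMO replicates 1 to 4 and 8443, 10500, 8661 and 11080 CPM in Sham replicates 1 to 4. Of the 13, 12 were lower in NeMO (median −0.30) and 0 passed edgeR's test. At an unadjusted p under 0.05 in edgeR 7 were lower, where 9.14% of all genes were. DESeq2 called 5 lower at an adjusted p under 0.05, where it called 2.24% of all genes lower. The most abundant of the 13 were Upk1a and Upk1b, with means of 1529 and 1441 CPM. Mesothelial markers summed to 817 to 1051 CPM in NeMO and 897 to 1409 CPM in Sham, with the highest value in Sham replicate 2. The part of these cells in the Uchl1 level was not tested. Uchl1 lies on chromosome 5 (66676091 to 66687234, plus strand) of GRCm38, and an annotated antisense transcript, Uchl1os, overlaps it and held 0.143 to 1.85 CPM.

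**Figure D3:**
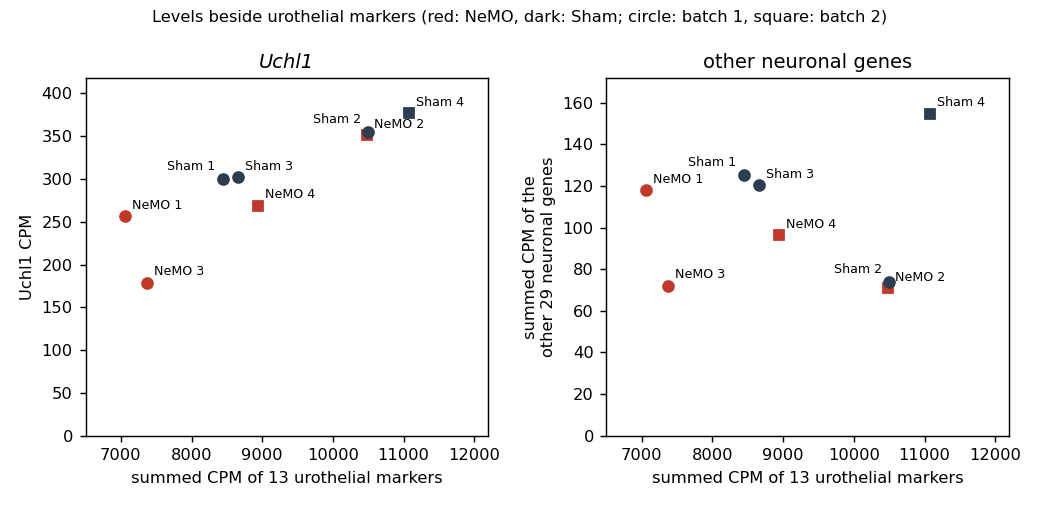
Left, Uchl1 in CPM; right, the summed CPM of the other 29 neuronal genes, each against the summed CPM of 13 urothelial markers, 1 point per library. Sham replicate 2 and NeMO replicate 2 are near the top on the left (355 and 351 CPM) and near the bottom on the right (74.0 and 70.9 CPM).

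Among the cytoskeletal genes, the neuronal tubulin Tubb3 and the intermediate filament genes Prph and Nefl showed a wide spread within Sham. Tubb3 measured 2.26, 1.39, 3.12 and 3.74 CPM in NeMO replicates 1 to 4 and 5.302, 0.866, 4.88 and 9.46 CPM in Sham replicates 1 to 4. Sham replicate 2 was the lowest of all 8 libraries and Sham replicate 4 the highest, and the other Sham values lay above every NeMO value. The fitted log2 fold change was −0.99 (SE 0.59, edgeR adjusted p = 0.412), with −0.46 in batch 1 and −1.86 in batch 2. Peripherin, Prph, a filament of peripheral neurons, measured 5.704, 2.58, 3.61 and 6.20 CPM in NeMO and 7.599, 2.94, 6.05 and 11.2 CPM in Sham in the same order of replicates. Its highest value was again in Sham replicate 4, and Sham replicate 2 lay near the lowest NeMO value (log2 fold change −0.66 with SE 0.40 and edgeR adjusted p = 0.425). The neurofilament light chain Nefl measured 3.01, 1.03, 1.37 and 3.68 CPM in NeMO and 4.48, 0.139, 3.802 and 7.52 CPM in Sham, with 4 reads in Sham replicate 2. Its medium chain Nefm stood at 1.79 ± 1.02 CPM in NeMO and 2.94 ± 1.32 CPM in Sham and the heavy chain Nefh at 1.97 ± 0.706 and 1.76 ± 0.779 CPM, and for the heavy chain the means differed by less than either SD. The gene spans of Nefl and Nefm overlap on opposite strands in the annotation, and the strand setting of the counts is not given.

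The dendritic microtubule protein gene Map2 varied least within Sham of the cytoskeletal genes tested. It measured 6.79, 7.05, 6.79 and 5.62 CPM in NeMO and 9.01, 9.07, 7.63 and 7.07 CPM in Sham. All NeMO values lay below all Sham values, although NeMO replicate 2 and Sham replicate 4 differed by little (log2 fold change −0.27 with SE 0.15 and edgeR adjusted p = 0.358). Sham replicate 2 was the highest of the 8 libraries for Map2, as it was the lowest for Tubb3 and Nefl. Alpha-internexin, Ina, had 7, 6, 4 and 3 reads in NeMO and 5, 7, 9 and 4 reads in Sham, too few to test.

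**Figure D4:**
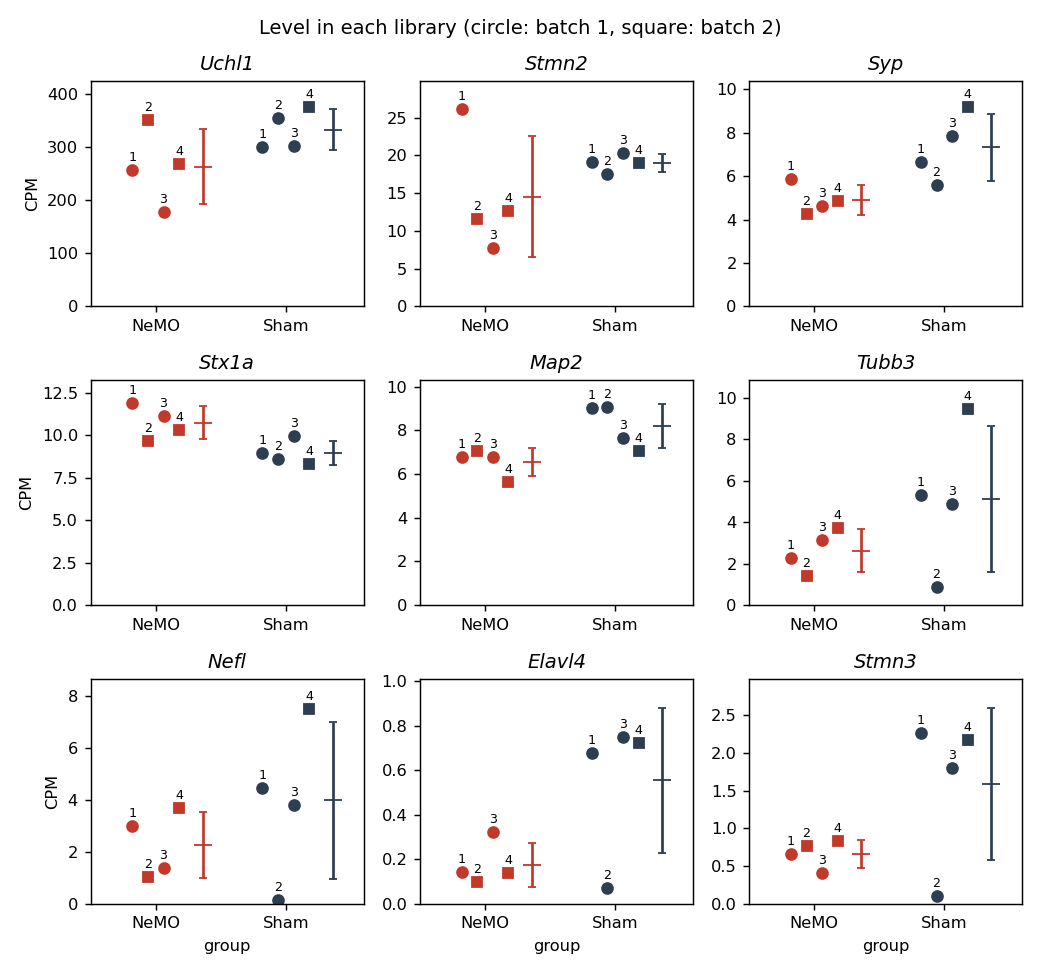
Level in CPM of 9 neuronal genes in each library, numbered by replicate, with the mean and SD beside each group; circles are batch 1 and squares batch 2. In Tubb3, Nefl, Elavl4 and Stmn3, Sham replicate 2 lies far below the other Sham libraries, while in Uchl1, Stmn2, Stx1a and Map2 it does not.

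Neuron-specific RNA-binding proteins of the ELAV family and the autonomic transcription factor Phox2a are genes of cell bodies, and their levels were low. Elavl2 measured 1.58, 0.861, 1.69 and 1.22 CPM in NeMO and 2.06, 1.004, 1.71 and 3.19 CPM in Sham (log2 fold change −0.57 with SE 0.38 and edgeR adjusted p = 0.457). The batches differed in sign for this gene, with 0.03 in batch 1 and −1.60 in batch 2. Elavl4 measured 0.143, 0.0993, 0.3204 and 0.138 CPM in NeMO and 0.677, 0.0693, 0.748 and 0.722 CPM in Sham. In reads these are 5, 3, 11 and 5 in NeMO and 23, 2, 25 and 19 in Sham. Sham replicates 1, 3 and 4 lay above all NeMO libraries and Sham replicate 2 below them (log2 fold change −1.62 with SE 0.69 and edgeR adjusted p = 0.252). Elavl3 had a mean of 0.326 CPM and a log2 fold change of −0.37 (SE 0.50). Phox2a, which specifies autonomic neurons, had 9, 2, 1 and 5 reads in NeMO and 12, 0, 16 and 18 reads in Sham. It was highest in Sham replicates 1, 3 and 4 and had 0 reads in Sham replicate 2, which allows up to 0.104 CPM (3 counts, counting error only).

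Genes of the vesicle release machinery differed in how much they varied between libraries. Snap25, a membrane SNARE of nerve terminals, measured 2.46, 0.762, 1.19 and 2.44 CPM in NeMO and 3.77, 0.727, 3.41 and 4.33 CPM in Sham. NeMO replicates 2 and 3 and Sham replicate 2 formed the low end, and the groups overlapped (log2 fold change −0.86 with SE 0.57 and edgeR adjusted p = 0.4598). Its SNARE partner gene Stx1a was one of the 3 with a positive fold change. It measured 11.9, 9.64, 11.1 and 10.3 CPM in NeMO and 8.92, 8.59, 9.97 and 8.32 CPM in Sham, with overlap through NeMO replicate 2 and Sham replicate 3 only (log2 fold change 0.30 with SE 0.12 and edgeR adjusted p = 0.221). The fold change of Stx1a was 0.33 in batch 1 and 0.27 in batch 2.

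Synaptophysin, Syp, an integral protein of synaptic vesicles, measured 5.85, 4.24, 4.602 and 4.84 CPM in NeMO and 6.66, 5.58, 7.87 and 9.19 CPM in Sham. The groups overlapped through NeMO replicate 1 and Sham replicate 2 only, and Sham replicate 4 was highest (log2 fold change −0.60 with SE 0.20 and edgeR adjusted p = 0.171). In the batches alone the values were −0.36 and −1.01. Syn2, a synapsin that tethers vesicles, measured 16.5, 9.901, 7.02 and 9.27 CPM in NeMO and 13.9, 8.76, 15.4 and 18.6 CPM in Sham, and NeMO replicate 1 was the second highest library (log2 fold change −0.42 with SE 0.31 and edgeR adjusted p = 0.509). Syn2 overlaps Timp4 on the other strand, which held 0.389 to 1.33 CPM. The fusion clamp gene Cplx1 had means of 0.6001 ± 0.2795 CPM in NeMO and 1.09 ± 0.926 CPM in Sham (log2 fold change −0.91, SE 0.68). For the calcium sensor gene Syt1 they were 2.47 ± 0.891 and 3.098 ± 1.53 CPM (−0.37, SE 0.37), and for Syt4 they were 1.29 ± 0.715 and 1.61 ± 1.19 CPM (−0.33, SE 0.70). None of these 3 passed the test.

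Syn1 was the synapsin with a positive fold change, at 1.92, 0.662, 2.19 and 3.903 CPM in NeMO and 1.53, 0.693, 1.26 and 1.82 CPM in Sham (log2 fold change 0.64 with SE 0.50 and edgeR adjusted p = 0.532). NeMO replicates 3 and 4 were the highest libraries and NeMO replicate 2 the lowest. Timp1, a metalloproteinase inhibitor gene within the Syn1 locus on the opposite strand, measured 10.9, 5.696, 23.9 and 16.1 CPM in NeMO and 4.59, 9.45, 4.999 and 5.81 CPM in Sham. NeMO replicates 3 and 4 were the highest libraries for Timp1 as well, in the other order. Within Sham, replicate 2 was the highest library for Timp1 and the lowest for Syn1. The overlap of Syn1 and Timp1 is of whole gene spans, and whether exons of the genes overlap was not checked. Only reads from exons that overlap on opposite strands could not be told apart without the strand setting. The part of Timp1 in the Syn1 counts was not tested.

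The granule genes Scg2, Scg3 and Chgb encode matrix proteins of the dense-core vesicles that store neuropeptides and amines, and all 3 were low. Chgb averaged 0.734 ± 0.448 CPM in NeMO and 1.01 ± 0.263 CPM in Sham (log2 fold change −0.55, SE 0.47). Scg3 averaged 0.853 ± 0.363 and 1.297 ± 0.284 CPM (−0.49, SE 0.38), and Scg2 averaged 0.488 ± 0.143 and 0.551 ± 0.2303 CPM (−0.10, SE 0.46). Sham replicate 2 was the lowest Sham library for Chgb but not for Scg2 and Scg3. The summed level of the 3 genes was 1.28 to 2.69 CPM in NeMO and 2.32 to 3.45 CPM in Sham, with overlap.

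Neuronal promoters often hold a cAMP response element, the binding motif of the activity-dependent factor CREB, or an RE1 element, bound by the repressor REST that silences neuronal genes in other cells. RefSeq promoter windows were at hand for 22 of the 30 genes, and the 250 bases before the start were searched on both strands. The letters TGACGTCA were found in 3 of the 22 genes (Scg2, Chgb and Syn1) and in 1.77% of all 27025 genes with a window. The left RE1 half-site TTCAGCACC was found in 1 of the 22 (Syn1) and in 0.348% of all genes, and the right RE1 half-site in 0 of the 22 and in 0.118%. These matches are descriptions of the letters and not evidence of binding. The windows of the 3 genes that hold TGACGTCA are shown on GRCm38.p6, 5′ to 3′ along the gene, with the motifs in capitals.
Scg2, chr1:79440027-79440276, minus strand: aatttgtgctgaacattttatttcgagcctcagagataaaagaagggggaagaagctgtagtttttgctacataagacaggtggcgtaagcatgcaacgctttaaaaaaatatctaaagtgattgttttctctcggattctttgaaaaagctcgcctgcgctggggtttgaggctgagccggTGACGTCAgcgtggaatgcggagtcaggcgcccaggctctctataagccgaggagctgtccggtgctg
Chgb, chr2:132781392-132781641, plus strand: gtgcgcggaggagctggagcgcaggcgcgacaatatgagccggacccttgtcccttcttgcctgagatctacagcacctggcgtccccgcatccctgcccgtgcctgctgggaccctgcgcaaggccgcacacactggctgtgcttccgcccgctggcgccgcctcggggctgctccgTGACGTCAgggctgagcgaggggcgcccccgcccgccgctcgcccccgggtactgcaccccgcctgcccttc
Syn1, chrX:20920919-20921168, minus strand: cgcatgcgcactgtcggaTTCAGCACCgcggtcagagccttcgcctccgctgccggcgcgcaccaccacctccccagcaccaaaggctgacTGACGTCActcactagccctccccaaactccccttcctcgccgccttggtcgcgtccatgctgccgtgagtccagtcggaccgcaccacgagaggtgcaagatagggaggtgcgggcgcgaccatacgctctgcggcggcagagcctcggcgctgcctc
The element begins 68 bases before the start in Scg2, 72 bases before it in Chgb and 159 bases before it in Syn1, and the RE1 half-site of Syn1 begins 232 bases before it. These starts are RefSeq's. The GENCODE M21 genes start farther upstream, so that the Chgb window lies inside the annotated gene and those of Scg2 and Syn1 lie partly inside.

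Of the growth-associated genes, Stmn2 was the most abundant, and Stmn3, Stmn4 and Gap43 were lower. The tubulin-binding gene Stmn2, a marker of growing and regenerating axons, measured 26.1, 11.5, 7.72 and 12.7 CPM in NeMO and 19.1, 17.5, 20.3 and 18.99 CPM in Sham. The Sham libraries lay close together, and the NeMO libraries spread on both sides of them, with replicate 1 above and the other 3 below. The fitted log2 fold change was −0.34 (SE 0.34, edgeR adjusted p = 0.631). The call given above was made on the 3 NeMO libraries below Sham. Its relative Stmn3 measured 0.659, 0.762, 0.408 and 0.8303 CPM in NeMO and 2.27, 0.104, 1.796 and 2.17 CPM in Sham. Sham replicates 1, 3 and 4 were above every NeMO library, and Sham replicate 2 had 3 reads (log2 fold change −1.40 with SE 0.69 and edgeR adjusted p = 0.316). Stmn4 averaged 0.728 ± 0.156 CPM in NeMO and 0.768 ± 0.467 CPM in Sham (−0.20, SE 0.51). Gap43, the growth cone protein also made by Schwann cells, averaged 2.00 ± 0.837 and 3.02 ± 1.22 CPM (−0.58, SE 0.41). Stmn2 lies on chromosome 3 (8509360 to 8561606, plus strand) and Stmn3 on chromosome 2 (181306459 to 181314500, minus strand) of GRCm38.

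The remaining members are the endoplasmic reticulum gene Rtn1, the synuclein gene Sncg and the G-protein subunit gene Gng3. Rtn1 measured 2.55, 3.64, 2.48 and 3.29 CPM in NeMO and 6.18, 1.94, 4.73 and 6.88 CPM in Sham, with 3 Sham libraries above all NeMO libraries and Sham replicate 2 below them (log2 fold change −0.85 with SE 0.32 and edgeR adjusted p = 0.2104). Rtn1 was one of the genes with a similar value in both batches, −0.77 and −0.98. Sncg measured 13.04, 7.52, 6.99 and 11.2 CPM in NeMO and 11.5, 7.24, 11.6 and 21.2 CPM in Sham (log2 fold change −0.44 with SE 0.31 and edgeR adjusted p = 0.485). Its batches gave −0.02 and −1.17, the latter set against Sham replicate 4, the highest library. Sncg is also expressed in adipocytes. The 15 adipocyte markers, none at 0, summed to 2273, 1754, 1110 and 2427 CPM in NeMO replicates 1 to 4 and to 3409, 2439, 2310 and 4588 CPM in Sham replicates 1 to 4, with the maximum in Sham replicate 4 as for Sncg. All 15 were lower in NeMO (median −0.92) and 0 passed edgeR's test. At an unadjusted p under 0.05 in edgeR 9 were lower, where 9.14% of all genes were. DESeq2 called 4 lower at an adjusted p under 0.05, where it called 2.24% of all genes lower. The most abundant of the 15 were Fabp4 and Cfd, with means of 463 and 462 CPM, and the part of adipocytes in the Sncg level was not tested. Gng3 averaged 0.347 ± 0.205 and 0.543 ± 0.317 CPM (−0.74, SE 0.70) and overlaps Bscl2, which held 51.4 to 90.9 CPM, on the other strand.

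Sham replicate 2 stood apart from the other Sham libraries in this set. It was the lowest Sham library for 23 of the 28 genes tested, where it was the lowest for 20.5% of all genes tested. Of all 30 genes, 24 were lowest there within Sham. The exceptions were Uchl1, Ina, Map2, Stx1a, Scg2 and Scg3. Within Sham the highest and lowest libraries differed by more than 5 times for 10 of the 30 genes, among them Nefl, Tubb3, Elavl4, Syt4 and Stmn4, and by less than 2 times for 8. Without Sham replicate 2 the NeMO values lay below all other Sham values in 12 of the 28 genes and above them in 0, against 5.72% and 6.13% of all genes. The median log2 fold change was then −0.66, 27 of 29 genes were lower, and edgeR still called 0 (11 lower at an unadjusted p under 0.05, background 7.56%). Since this library was low for most of the set, leaving it out raises the Sham level by construction.

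The same library was low in some other neuronal genes. The nitric oxide synthase gene Nos1, found in parasympathetic neurons, measured 3.64, 0.828, 2.21 and 5.26 CPM in NeMO and 7.33, 0.242, 3.77 and 9.27 CPM in Sham, with 7 reads in Sham replicate 2. The neuropeptide gene Vip measured 2.92, 1.56, 1.83 and 5.01 CPM in NeMO and 5.71, 0.623, 4.999 and 6.76 CPM in Sham. Sham replicate 2 was the lowest Sham library for all 6 nitrergic and peptidergic genes tested, for the choline transporter gene Slc5a7, for 3 of 3 sensory neuron genes outside the set and for 8 of 14 autonomic identity and secretory genes. For the larger lists the share was smaller, at 8 of 24 other vesicle and release genes and 10 of 29 other axonal and cytoskeletal genes, and it was 2 of 4 for the noradrenergic genes. It was also the lowest for 10 of 18 Schwann cell and glial markers and 10 of 15 adipocyte markers. By contrast, it was the lowest for 0 of 13 urothelial, 0 of 6 mesothelial and 1 of 10 smooth muscle markers. Whether this library held less ganglion or nerve tissue was not tested.

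Further neuronal genes outside the set were described from lists written beside it. Over all genes, 9.14% were lower and 9.38% higher at an unadjusted p under 0.05 in edgeR. DESeq2 called 2.24% of all genes lower and 3.19% higher at an adjusted p under 0.05. Of 24 other vesicle and release genes tested, 15 were lower and 9 higher in NeMO (median log2 fold change −0.20). Among them edgeR called 0 (5 lower and 1 higher at an unadjusted p under 0.05), and DESeq2 called 1 lower at an adjusted p under 0.05. The most abundant of the 24 were Vamp2 (−0.06, SE 0.07), the vesicle SNARE, and Rims1 (−0.95, SE 0.45), a scaffold of release sites. Of 29 other axonal and cytoskeletal genes 11 were lower and 18 higher (median 0.08), and edgeR called 0 (2 lower and 5 higher at an unadjusted p under 0.05). DESeq2 called 2 lower and 3 higher at an adjusted p under 0.05. These calls included Mapt, lower at −0.96 (DESeq2 adjusted p = 0.00547), and Map1b, higher at 0.39 (DESeq2 adjusted p = 0.00567). The most abundant of the 29 were Dpysl3 (0.18, SE 0.14), a growth cone protein, and the axonal adhesion gene L1cam (0.09, SE 0.10), which is on the Schwann cell list too. Of 14 autonomic identity and secretory genes 11 were lower and 3 higher (median −0.19), and edgeR and DESeq2 called 0 (2 lower at an unadjusted p under 0.05). Gata3 (−0.08, SE 0.11) and Rbfox3 (−0.07, SE 0.32) were the most abundant there. Gata3 is also a factor of the urothelium.

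Genes of the transmitter phenotypes differed in direction. The noradrenaline transporter gene Slc6a2, which takes the transmitter back into sympathetic terminals, rose in NeMO, as 1 of 4 noradrenergic genes tested. It measured 21.4, 16.2, 25.1 and 26.7 CPM in NeMO and 7.305, 10.6, 7.21 and 6.46 CPM in Sham, with no overlap (log2 fold change 1.56 with SE 0.20 and edgeR adjusted p = 0.0453). The call ended without NeMO replicate 3 or 4, Sham replicate 1, 3 or 4, in each batch alone and with the replicate number as a block, with log2 fold changes of 1.43 to 1.80 over these and the other settings and edgeR adjusted p up to 0.273. No other noradrenergic gene passed the test. The dopamine beta-hydroxylase gene Dbh had a log2 fold change of −0.69 (SE 0.59) and Ddc, which makes dopamine, −0.74 (SE 0.26). The tyrosine hydroxylase gene Th, the first enzyme of the pathway, had 0 reads in all 4 NeMO libraries and in 2 Sham libraries, and 4 and 1 reads in Sham replicates 3 and 4. Slc18a2, the vesicular monoamine transporter gene, was higher in NeMO by its fitted value, at 1.04 (SE 0.41, edgeR adjusted p = 0.222).

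Cholinergic and sensory genes were low in all libraries. The choline acetyltransferase gene Chat had 0, 8, 0 and 2 reads in NeMO and 6, 0, 2 and 14 reads in Sham, and Slc5a7, the single cholinergic gene tested, stood at −0.66 (SE 0.67). Of the 6 nitrergic and peptidergic genes tested 5 were lower and 1 was higher (median −0.74), and edgeR called 0, also at an unadjusted p under 0.05. DESeq2 called 0 at an adjusted p under 0.05. The most abundant were the enkephalin gene Penk (0.69, SE 0.59) and Nos1 (−0.83, SE 0.91). Of 4 sensory neuron genes tested, Nefh among them, 3 were lower and 1 higher (median −0.25), and neither tool called any, also at an unadjusted p under 0.05 in edgeR. Avil stood at −0.39 (SE 0.30). Scn10a and Mrgprd, channel and receptor genes of nociceptor cell bodies, had 0 reads in all 8 libraries.

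Schwann cells ensheath these axons, and most of their markers were lower in NeMO by fitted value. Of 18 tested 13 were lower and 5 higher (median −0.28), and edgeR and DESeq2 called 0. At an unadjusted p under 0.05 in edgeR 5 were lower, where 9.14% of all genes were. The list summed to 549.5 to 605 CPM in NeMO and 586 to 686 CPM in Sham, with Erbb3 (0.06, SE 0.07) and Pmp22 (−0.28, SE 0.11) the most abundant. The difference between the medians of the neuronal and Schwann cell genes was not tested. The median of the smooth muscle markers was 0.02 on the log2 scale with 5 of 10 lower, that of macrophage markers −0.30 with 10 of 10 lower, skeletal muscle markers −0.13 with 7 of 9 lower and mesothelial markers −0.09 with 3 of 6 lower. In these 4 lists edgeR called 0 genes (0, 1, 1 and 1 lower and none higher at an unadjusted p under 0.05). DESeq2 called 1 skeletal muscle and 1 mesothelial gene lower at an adjusted p under 0.05, where it called 2.24% of all genes lower. The most abundant were Myh11 (0.06, SE 0.25) and Tagln (−0.13, SE 0.21) of smooth muscle and Lyz2 (−0.22, SE 0.26) and Csf1r (−0.14, SE 0.22) of macrophages. For skeletal muscle they were Acta1 (0.33, SE 0.19) and Ckm (−0.70, SE 0.30), and for mesothelium Krt19 (−0.28, SE 0.13) and Upk3b (−0.56, SE 0.14), which is on the urothelial list too.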

How the data were processed

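Bladder polyA RNA of 4 NeMO and 4 Sham libraries was analysed from the deposited files, which hold raw counts of reads for every gene symbol (1 file for each library) and in which 0 columns belonged to other samples. The mm10 build and the tools featureCounts, STAR, Trimmomatic and DESeq2 appear, without versions, per the submitters' processing notes. The library kit marks strand, per the labels' protocols. The sources used here do not give the annotation, the strand setting used in counting or the treatment of multi-mapping reads. Groups come from titles and batches from file names. The authors' counts were used unchanged. Genes were kept by filterByExpr (minimum count 10, minimum total 15), scaled by TMM and tested with edgeR 4.0.16 in R 4.3.3 (robust quasi-likelihood F-test, two-sided, batch and group as terms, Benjamini-Hochberg over 16370 genes, threshold 0.05), and the fit was tested on simulated data. DESeq2 1.42.0 was an alternative. Depth ran from 27212499 to 36375313 counts. Positions and lengths come from GENCODE M21 (GRCm38, also called mm10) and promoter sequences from RefSeq on GRCm38.p6. Overlaps between genes are of whole gene spans, and overlap of exons was not checked.

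The members and lists were chosen with earlier results of these data known. Values in every library are given for the 10 members with the smallest p, the 5 with the highest CPM and Uchl1, Tubb3, Prph, Phox2a and Snap25, and read counts for members with too few reads to test. Of each other list, genes past the threshold or else the 2 most abundant are named. Nefl, Syn1, Vip, Th, Dbh, Ddc, Slc18a2, Scn10a, Mrgprd, Mapt and Map1b were named outside this rule, after their values were seen. The listed genes Slc18a3 and Adgre1 were not analysed here.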

Additional observations from a re-analysis of the deposited data

Results flagged for a closer look

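Of 60 groups of 4 libraries (30 genes in NeMO and in Sham), 1 held a library whose gap to its nearest neighbour was large against the whole range by Dixon's 95% limit. Elavl4 in Sham replicate 2 stood at 0.0693 CPM, while the other Sham libraries lay between 0.677 and 0.748 CPM (gap over range 0.896). Chance alone marks about 5% of groups.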

How the results depend on the processing

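Of 28 genes tested, 22 kept the sign of their log2 fold change under 16 alternatives. No member was called under the 15 alternatives other than leaving out NeMO replicate 1. Leaving out 1 library gave 0 to 2 calls and medians of −0.85 to −0.33. The median was −0.52 with DESeq2 size factors, with DESeq2's test and without the low-count filter. It was −0.51 without the batch term and −0.45 with transcript length and GC content corrected for. With that correction Uchl1 stood at −0.28, Sncg at −0.26, Stx1a at 0.43 and Map2 at −0.38. Over all genes, deviation and transcript length correlated at 0.26, 0.07, 0.20 and 0.002 in NeMO replicates 1 to 4. In Sham replicates 1 to 4 the correlations were −0.002, −0.24, −0.09 and −0.27. In batch 1 alone Elavl2 stood at 0.034 and Syt1 at 0.020, and in batch 2 alone Nefh stood at −0.43 and Scg2 at 0.60. Leaving out 1 library reversed Nefh, Scg2, Syt4, Stmn4, Elavl2 and Syt1, with ranges of −0.12 to 0.52, −0.43 to 0.14, −0.85 to 0.21, −0.47 to 0.19, −0.79 to 0.034 and −0.54 to 0.020. The causes were not tested. Deviations of same-numbered libraries correlated at −0.01, 0.08, 0.04 and 0.32, so the numbers were not taken to pair the samples. With the replicate number as a block the median was −0.61 with 0 calls (10 lower at an unadjusted p under 0.05, background 6.40%). The interaction gave 0 calls in all 10 alternatives, and without Sham replicate 4 it could not be fitted. At 1 CPM a gene had 26.3 to 36.1 reads, which limits Elavl3, Elavl4, Gng3, Scg2, Phox2a and Ina.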
